A study of Mus musculus with 5 samples.

Results

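The regions described here carried H3K27me3, the trimethylation of lysine 27 on histone H3, near gene starts in both Kdm6b knockout libraries and in neither wild-type library. Peaks of 4 H3K27me3 ChIP-seq libraries on chromosomes 1 to 19 were merged where they overlapped by at least 1 bp. Merged regions with a peak in both Kdm6b-cKO libraries and none in either WT library were called knockout-only. Those that overlapped the transcription start site (TSS) ± 3 kb of a protein-coding gene were kept. The rule left 846 of 47569 merged regions, which were 12.8% of the 6633 regions at promoters. They lay at 840 of 20807 protein-coding autosomal genes (4.04%). The regions were chosen by the presence or absence of a peak in each of the 4 libraries, so their presence in the knockout and absence in the WT are a description and were not tested.

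The libraries came from mouse dermal fibroblasts of the late embryo (E18.5), 2 of Kdm6b-cKO embryos and 2 of WT embryos. Kdm6b-cKO embryos carried floxed Kdm6b alleles (Kdm6b fl/fl) deleted by Dermo1-Cre, which is active in the dermal mesenchyme and not in fibroblasts alone. Dermal preparations were expanded in AmnioMAX medium, and the labels give a GFP+ sort as the mark of the deletion for every sample, WT included. No label says that the 2 libraries of a genotype came from separate embryos, and the spread between them may be technical. ChIP-seq does not show the deletion itself, and no library had a peak within 3 kb of the Kdm6b TSS. On the autosomes, Kdm6b-cKO replicate 3 had 38508 peaks over 133.3 Mb and replicate 4 had 36626 over 115.3 Mb. WT replicate 7 had 25671 over 81.8 Mb and WT replicate 9 had 19210 over 55.3 Mb. By the study's methods the libraries were subsampled to a like number of reads. The lists themselves hold no read counts, so no counting interval was computed. Of 18 promoters of genes that define fibroblasts, such as collagen and matrix genes, 0 had a region in any library. Of 41 epithelial identity promoters, 27 had a region of all 4 libraries.

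H3K27me3 is laid down by the Polycomb repressive complex PRC2 and marks genes that are held silent. Kdm6b, also called Jmjd3, is a demethylase that removes it. In fibroblasts, PRC2 typically holds regulators of other lineages in broad domains over CpG-rich promoters, whereas genes of terminal differentiation with few CpGs are silent in most cells with little of the mark.

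Sequences are shown for 6 promoters because base composition set the knockout-only promoters apart from those marked in every library. Each runs 5′ to 3′ over the 250 bases before the TSS, read from RefSeq on GRCm38.p6, the assembly behind mm10, with each CpG in capitals. Krt73 encodes a keratin of the hair root sheath, Krtap16-1 a keratin-associated protein of the hair shaft, Padi1 a peptidylarginine deiminase of the epidermis, Epx the eosinophil peroxidase and Klk8 a serine protease of the kallikrein family. All 5 windows were under peaks over their 250 bases in both Kdm6b-cKO libraries and over 0 bases in both WT libraries. Hes5, a Notch target, is shown for contrast, as its 250 bases were under peaks in all 4 libraries.
Krt73, chr15:101802361-101802610, minus strand: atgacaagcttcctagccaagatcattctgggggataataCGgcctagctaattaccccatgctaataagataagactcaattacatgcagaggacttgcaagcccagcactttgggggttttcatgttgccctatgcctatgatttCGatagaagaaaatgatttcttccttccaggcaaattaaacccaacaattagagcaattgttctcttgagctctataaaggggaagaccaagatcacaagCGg
Krtap16-1, chr11:99986594-99986843, minus strand: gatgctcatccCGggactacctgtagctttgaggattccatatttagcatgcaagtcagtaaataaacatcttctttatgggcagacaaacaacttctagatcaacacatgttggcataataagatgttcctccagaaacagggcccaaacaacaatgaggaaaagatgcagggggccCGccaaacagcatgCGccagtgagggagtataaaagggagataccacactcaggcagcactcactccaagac
Padi1, chr4:140845779-140846028, minus strand: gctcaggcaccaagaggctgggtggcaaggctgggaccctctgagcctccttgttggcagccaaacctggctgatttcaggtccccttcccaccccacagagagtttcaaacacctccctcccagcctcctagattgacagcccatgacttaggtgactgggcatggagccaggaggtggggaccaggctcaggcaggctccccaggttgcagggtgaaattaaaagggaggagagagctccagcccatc
Epx, chr11:87875537-87875786, minus strand: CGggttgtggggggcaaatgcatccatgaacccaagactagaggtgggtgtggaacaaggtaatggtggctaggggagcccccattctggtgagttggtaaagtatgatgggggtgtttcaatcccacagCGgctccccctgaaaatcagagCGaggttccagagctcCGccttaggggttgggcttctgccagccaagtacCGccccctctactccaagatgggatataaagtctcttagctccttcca
Klk8, chr7:43797327-43797576, plus strand: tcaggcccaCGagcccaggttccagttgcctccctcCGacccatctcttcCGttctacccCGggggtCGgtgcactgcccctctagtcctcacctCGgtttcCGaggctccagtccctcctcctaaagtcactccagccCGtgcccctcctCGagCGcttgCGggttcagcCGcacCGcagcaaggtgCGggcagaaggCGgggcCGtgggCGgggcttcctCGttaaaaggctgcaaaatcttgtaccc
Hes5, chr4:154960673-154960922, plus strand: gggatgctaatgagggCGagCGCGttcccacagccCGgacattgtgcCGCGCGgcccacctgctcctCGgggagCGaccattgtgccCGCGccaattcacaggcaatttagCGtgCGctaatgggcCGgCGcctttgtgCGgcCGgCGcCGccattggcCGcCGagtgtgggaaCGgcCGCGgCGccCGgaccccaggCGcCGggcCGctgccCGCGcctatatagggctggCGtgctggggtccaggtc
The window of Padi1 held 0 CpGs although 60% of its bases were G or C. Krt73 and Krtap16-1 held 3 each, Epx 5 and Klk8 18, against 32 in Hes5. Hes5 is not typical of its class, as windows of 300 bases at genes with a region of all 4 libraries held a median of 16.

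The share of knockout-only regions was 12.8% at promoters and 15.4% among all 47569 regions. Regions with peaks in all 4 libraries were the largest class at promoters, with 3547 (53.5%). The reverse class, seen in both WT libraries and absent from the knockout pair, numbered 12 (0.181%). A promoter region with peaks in both Kdm6b-cKO libraries also had one in WT replicate 7 alone in 547 cases and in WT replicate 9 alone in 80. Peaks of Kdm6b-cKO replicate 3 alone accounted for 629 promoter regions and those of replicate 4 alone for 597, so the regions in only 1 knockout library (1226) outnumbered those shared by the pair. Of all knockout-only regions, 11.5% lay at promoters, against 36.2% of the regions of all 4 libraries and 6% of the 200 wild-type-only regions.

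The count was lower under each of 3 ways of shortening the lists, which were longer in both Kdm6b-cKO libraries than in either WT library. With only peaks of a −log10 q of 3 or more, 554 promoter regions were knockout-only and 16 wild-type-only. With each list cut to as many top-ranked peaks as the shortest list held, these counts were 382 and 68. With the strongest peaks of each library up to an equal covered length, they were 46 and 335, and the wild-type-only regions then outnumbered the knockout-only ones. Of the genes named by the full lists, 306 were still at a knockout-only region at the stricter q, 296 with equal peak numbers and 17 with equal covered length. Those 17 included Sema3f, Lhcgr, Cdcp1, Rflna and, named after their values were seen, Il12rb2 and Casr, and a further 6 were predicted genes on chromosome 14. Of the 5 knockout-only promoters printed above, Padi1 and Epx were kept at the stricter q and with equal peak numbers, Krt73, Krtap16-1 and Klk8 under neither, and 0 with equal covered length. How much of the count stems from the longer knockout lists was not tested. Leaving out WT replicate 7 raised it to 1418, and leaving out Kdm6b-cKO replicate 3 or 4 raised it to 1610 or 1581, whereas leaving out WT replicate 9 gave 927.

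The members were short and weak beside the regions marked in every library. The rule leaves out any region with a WT peak and so favours such regions, which makes this contrast a description only. Members were merged over the Kdm6b-cKO lists alone, and the regions marked in every library over all 4 lists. Their merged length ranged from 292 to 17172 bp with a median of 2112 bp, against 9412 bp for promoter regions of all 4 libraries and 1906 bp for knockout-only regions away from promoters. Only 71 members were longer than 5 kb, and 130 were shorter than 1 kb. The fold ratio over local background, averaged over the peaks of a region by length, had a median of 2.82 in Kdm6b-cKO replicate 3 and 2.84 in replicate 4. In the regions of all 4 libraries it was 3.65 and 3.57. Ranked by −log10 q within its own list, the median member stood at the 48.8th percentile in replicate 3 and the 52.6th in replicate 4, and the median region of all 4 libraries at the 94.1st and 93.5th. Of the members, 277 (32.7%) reached a −log10 q of 3 in both Kdm6b-cKO libraries and 263 (31.1%) in neither. Among regions of all 4 libraries, 93.4% reached it in both. The strongest peak of a region was ranked, and 57.7% of these regions had 1 peak in each Kdm6b-cKO library.

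The 2 knockout libraries marked the same regions with unequal extents. In 755 members (89.2%) each library had a single peak, and in 514 (60.8%) each covered at least 50% of the merged length. Replicate 3 covered the longer stretch in 430 members (50.8%), close to an even split, while it covered more in 69.2% of the promoter regions of all 4 libraries. Across the 846 members, covered length in the 2 libraries had a Pearson's r of 0.763 and a Spearman's rho of 0.563, the fold ratio 0.473 and 0.368, and −log10 q 0.526 and 0.395. These points share their 2 libraries and are not independent replicates. The plot of the members in the 2 libraries shows a wide scatter for short regions and a close match for long ones.

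**Figure D1:**
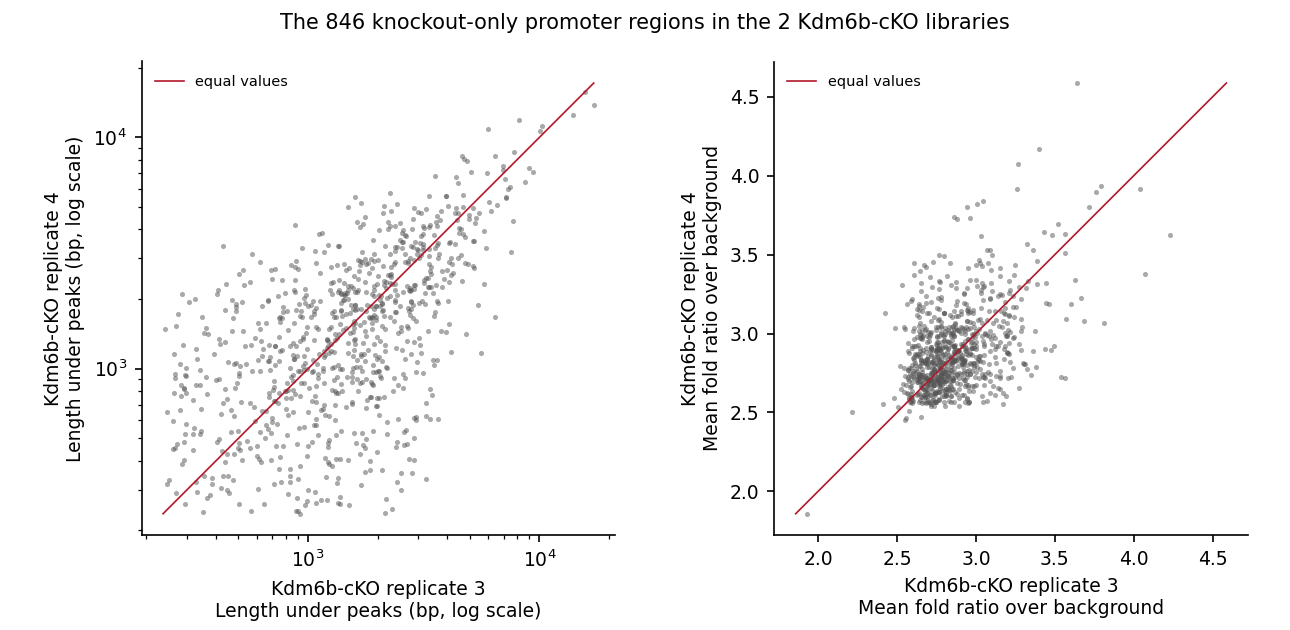
Each point is a knockout-only promoter region (846), with its value in Kdm6b-cKO replicate 3 on the x axis and in replicate 4 on the y axis. The left panel plots the bp under peaks on log axes and the right panel the mean fold ratio over background. Points scatter on both sides of the line of equal values, with a Pearson's r of 0.763 for length and 0.473 for the fold ratio.

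The members held the TSS more often than they lay on either side of it, and those off it were split nearly evenly. The TSS itself was inside 340 members (40.2%), 240 (28.4%) ended upstream of the nearest TSS and 266 (31.4%) began downstream of it. In the regions of all 4 libraries these shares were 72.2%, 19.3% and 8.51%, and 0 of the 12 wild-type-only regions held a TSS. At like lengths the shares that held a TSS lay closer together. Between 2 and 4 kb, 42.2% of 322 members and 43.8% of 379 regions of all 4 libraries held one, and above 4 kb 68.9% of 132 and 76.1% of 3128. A further 179 members came within 1 kb of a TSS without holding it. Introns of protein-coding genes made up 44.4% of the members' length, coding exons 8.41% and sequence outside protein-coding genes 39.4%, against 38.9%, 4.31% and 51.3% in the regions of all 4 libraries.

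At 706 of the 840 genes no WT peak lay anywhere within 3 kb of the TSS, while at 134 the knockout-only region stood beside a WT peak. Among the 706, the share of bases under a peak was highest just downstream of the TSS, at 38.6% in Kdm6b-cKO replicate 3 and 41.0% in replicate 4 in the bin centred 375 bp downstream. In the bin centred 2125 bp upstream it was 21.7% and 16.0%. WT peaks were absent from the window by the choice of these 706 genes and returned outside it. At 9875 bp upstream they reached 6.09% in WT replicate 7 and 3.60% in WT replicate 9, where the knockout libraries had 16.9% and 14.7%. The nearest WT peak was a median of 11.96 kb from a member, and 46.1% of the members had one within 10 kb. By comparison, 53.8% of the knockout-only regions away from promoters did.

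**Figure D2:**
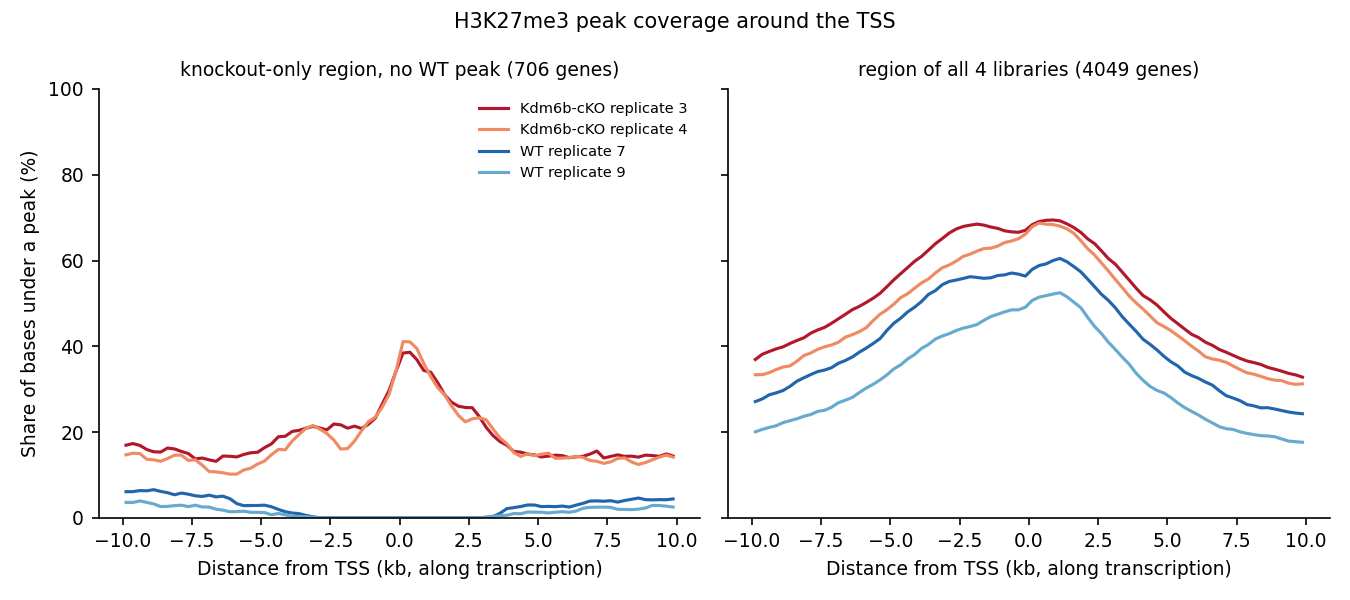
Share of bases under an H3K27me3 peak (%) by distance from the TSS in kb, in 250 bp bins, for each of the 4 libraries. Left, the 706 genes with a knockout-only region and no WT peak within 3 kb, where both WT lines are at 0 by selection and the Kdm6b-cKO lines peak just downstream of the TSS. Right, the 4049 genes with a region of all 4 libraries, where the lines form broad domains in all 4.

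The values on either side of the limits of the rule are given here as a description. The farthest members inside the promoter window lay 2996 bp from the TSS of Clcn7, 2994 bp from that of Slc31a2 and 2988 bp from that of Scyl2. The nearest knockout-only regions outside it lay 3008, 3012 and 3014 bp from those of Camk2n1, Myo16 and Slc25a35. A WT peak stood 3 bp from the member at Krtap12-1, 5 bp from that at Dgkb and 12 bp from that at Tex50. Just outside, a single WT library covered 237 bp of the region at 9530003J23Rik, 238 bp of that at Lcn2 and 242 bp of that at Mfsd9. The weakest members had a −log10 q of 2.09 at Nat8f6, 2.09 at Mtss1 and 2.11 at Ccrl2 in the lower library. The strongest promoter regions missed for having a peak in 1 Kdm6b-cKO library alone reached 6.08 at Zfp385c, 6.05 at Slfn8 and 5.32 at Ampd3.

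CpG-poor promoters made up a larger share of these genes than of all genes. Each gene was classed by windows of 500 bp between 700 bp upstream and 200 bp downstream of the TSS, as high CpG if any window had an observed over expected CpG ratio above 0.75 and a GC content above 55%, and as low CpG if none exceeded 0.48. Of the 840 genes, 486 (57.9%) were low and 154 (18.3%) high, against 40.6% and 34.6% of all protein-coding genes and 32.8% and 33.2% of those with a region of all 4 libraries. Where the region lay over the TSS, 64.8% of 349 genes were low and 7.74% high. Where it lay beside the TSS, 53.0% of 491 were low and 25.9% high. The regions themselves were not poor in GC, with a median GC content of 50.6% against 48.2% in the regions of all 4 libraries, but they held 13.8 CpGs per kb against 15.7. Repeats covered a median of 14.5% of a member and 21.02% of a region of all 4 libraries.

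**Figure D3:**
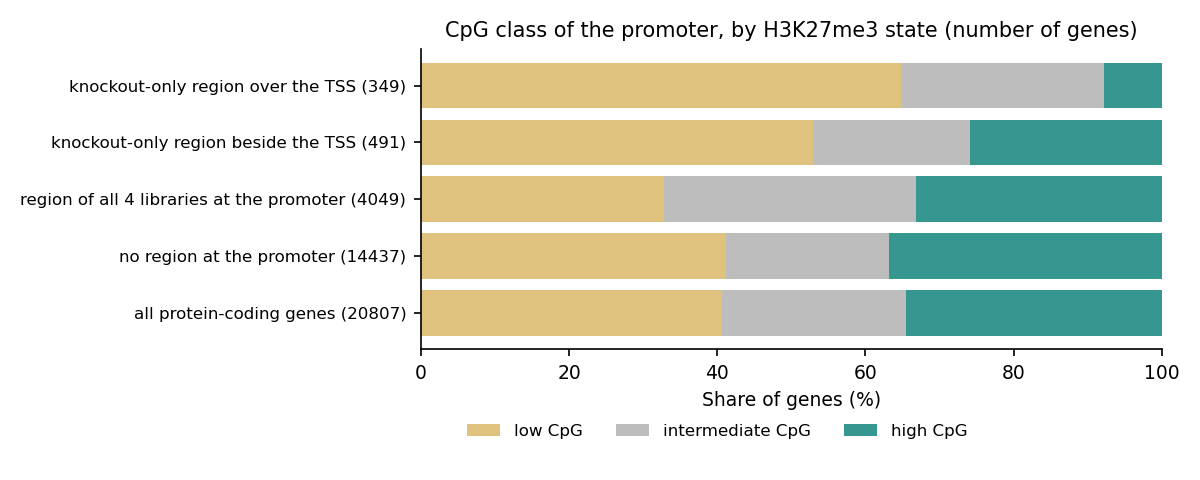
Share of genes (%) with a low, intermediate or high CpG promoter, by the H3K27me3 state of the promoter, with the number of genes in brackets. The low class makes up 64.8% of genes with a knockout-only region over the TSS, 32.8% of those with a region of all 4 libraries and 40.6% of all protein-coding genes.

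The same contrast was present in the sequence just around the TSS. A RefSeq promoter of 300 bases (250 before and 50 after the TSS) was matched within 500 bases of the annotated start for 540 of the 840 genes and 13125 of all 20807. Of the matched genes, 222 had the region over the TSS, and their windows held a median of 7 CpGs, against 16 in the 2610 windows of genes with a region of all 4 libraries and 16 in all windows. The 540 windows of all matched genes held a median of 8. The GC box (GGGCGG, either strand) was in 33.8% of the 222 windows, 56.2% of the 2610 and 52.2% of all. The TATA box (TATAAA, either strand) was in 14.0%, 9.39% and 11.3%, and the CCAAT box (CCAAT, either strand) in 29.3%, 34.5% and 38.6%. A TCF/LEF motif (CTTTGAT, either strand) was in 12 of the 222 (5.41%) against 2.76% and 3.02%, and an EBF motif (TCCC, a gap of 2 bases, then GGGA) in 2 (0.901%) against 1.23% and 0.945%. Over all 540 matched genes the shares were 41.3% for the GC box, 14.8% for the TATA box, 34.1% for the CCAAT box, 4.44% for the TCF/LEF motif and 0.741% for the EBF motif, so the share with the CCAAT box lay next to that of the 2610. Of the printed stretches, Krt73, Krtap16-1 and Epx held the TATA box, and Epx and Klk8 the GC box. A match to a motif describes the letters and does not show that a factor binds.

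The most heavily covered promoters, ranked by the lower of the 2 knockout libraries, included those of genes of hair, gut and blood cells. B230104I21Rik, a gene of unknown function, had all 6001 bp of its TSS ± 3 kb under peaks in both Kdm6b-cKO libraries and 0 bp in both WT libraries. At Tff2, a trefoil peptide of the gastric mucosa, 6001 bp were covered in Kdm6b-cKO replicate 3, 5086 bp in replicate 4 and 0 bp in both WT. At Epx, 5647 and 5365 bp were covered in replicates 3 and 4 and 0 bp in both WT. Its region, chr11:87870649-87878182 (7534 bp), spanned the TSS, with a fold ratio of 2.93 and 2.92. The nearest WT peak was 2.07 kb from the Epx region and 3.73 kb from the Tff2 region. At Rbbp8nl, 5369 and 5373 bp were covered in the knockout and 0 bp in both WT. Krt83, a hair keratin, had 5027 and 5846 bp covered and Krt73 5540 and 5021 bp, again with 0 bp in both WT libraries. Gm10318, Ssu2, Vwa5b1 and Gm2696 completed the 10 largest by that measure, each with between 4230 and 5868 bp in the knockout libraries and 0 bp in WT. For all 10 genes the ranges of the genotypes do not overlap, which the choice of genes without a WT peak fixed. Such coverage was rare, as at least 3 kb of the window was covered in both knockout libraries at 96 of the 840 genes (11.4%) and at least 500 bp at 631 (75.1%). The plot of promoter coverage by library shows these 10 genes above its dividing line.

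**Figure D4:**
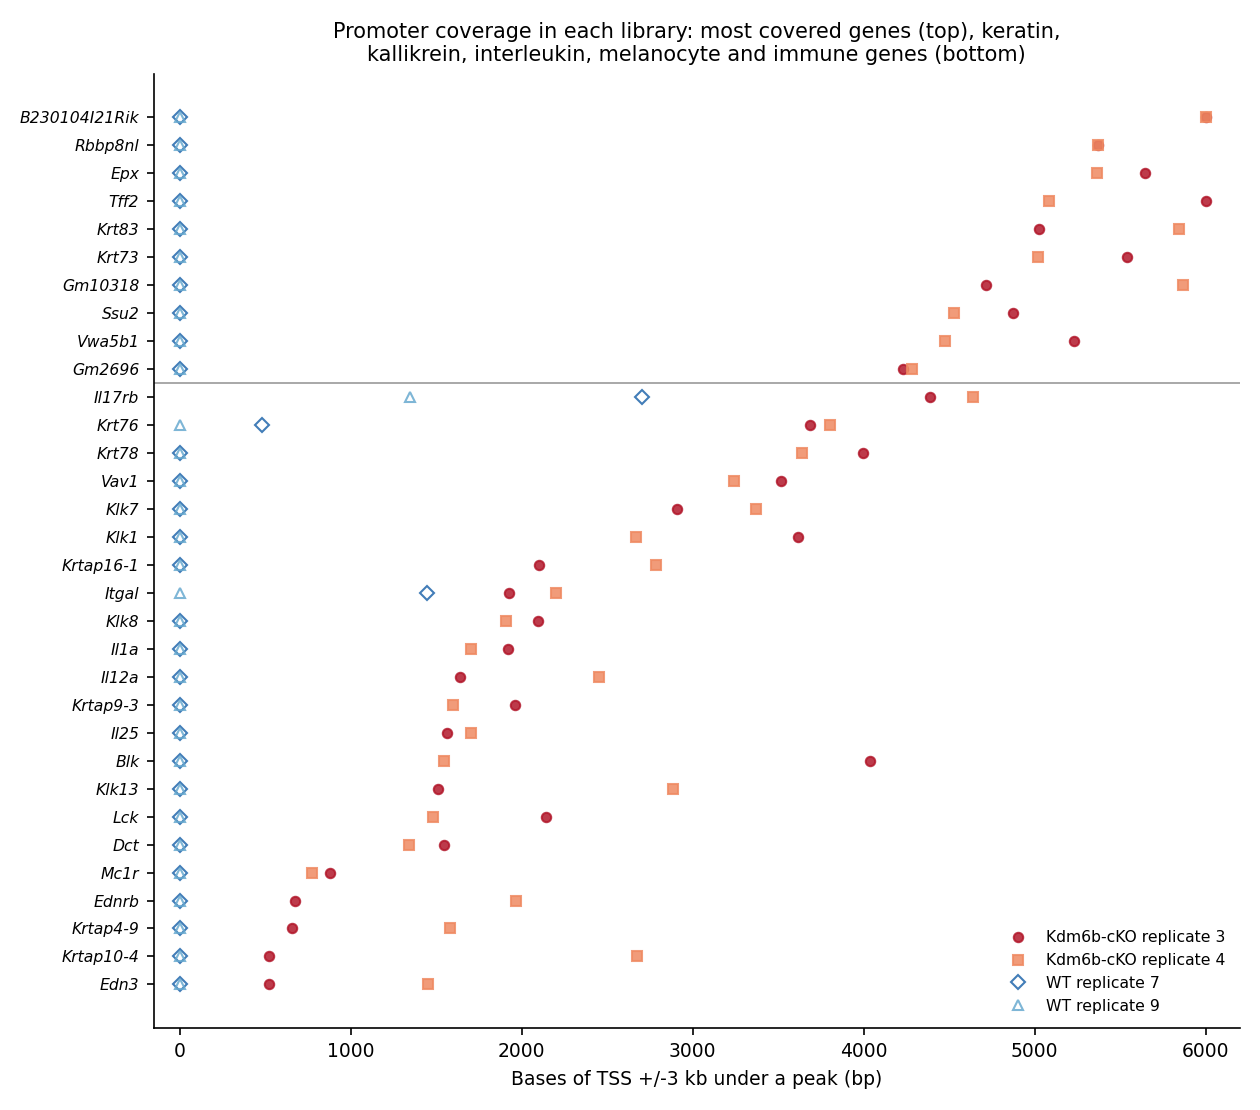
Bases of TSS ± 3 kb under a peak (bp) in each of the 4 libraries, for the 10 most covered genes with no WT peak, by the lower knockout library (above the line), and for keratin, keratin-associated, kallikrein, interleukin, melanocyte and immune genes (below it). Filled symbols are Kdm6b-cKO and open symbols WT. WT symbols are at 0 except at Il17rb, Krt76 and Itgal, whose knockout-only region stands beside a WT peak.

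Of the 5 longest members, 2 lay at peptidylarginine deiminase genes, whose enzymes turn arginine into citrulline in epidermal and hair proteins. The longest, chr4:140792155-140809326, ran for 17172 bp inside Padi3, from 1322 bp downstream of its TSS. It was covered over all 17172 bp in Kdm6b-cKO replicate 3 and 13768 bp in replicate 4, with a fold ratio of 3.04 and 3.07, and the nearest WT peak was 25.04 kb away. A separate member of 6006 bp lay over the Padi3 TSS. The region over the Padi1 TSS, chr4:140845624-140859734, measured 14111 bp and was covered over 13971 and 12506 bp. The other regions among the 5 longest lay at Rbbp8nl (15696 bp, chr2:180276556-180292251), Krt83 (12264 bp, chr15:101483124-101495387) and Ubxn10 (11975 bp, chr4:138736665-138748639). Each of these held the TSS of its gene.

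The highest fold ratios, ranked by the lower of the 2 knockout libraries, came from other genes. The region over the TSS of 4931440F15Rik reached 4.23 in Kdm6b-cKO replicate 3 and 3.62 in replicate 4. Those at Rflna reached 3.79 and 3.94, at Cdcp1 3.71 and 3.80, at the luteinizing hormone receptor gene Lhcgr 3.52 and 3.70, and at the carboxylesterase gene Ces2c 3.56 and 3.51. The remaining 5 of the 10 highest by that measure were Gm3468, Gm10409, Gm8281, Gm8237 and Gm3500, predicted genes on chromosome 14, with fold ratios from 3.48 to 4.59. Sequence that recurs in the genome made up from 76.1% to 100% of the 31-base words of these 5 regions. Over 50% of the 31-base words occurred more than once in the genome in 46 members (5.44%), against 1.72% of the promoter regions of all 4 libraries. Whether reads there could be assigned to a single copy was not measured. Without those 46, 800 regions remained.

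Keratins were the family with the largest share of knockout-only promoters among the 39 families and 15 gene lists examined. The 49 keratin genes counted encode intermediate filaments of epithelia and hair, and 17 (34.7%) had a knockout-only region, against 4.04% of all protein-coding genes. Of the 49, 12 had a region of all 4 libraries, 8 another region and 12 none. Krt6a was not among the 49 genes counted, although a knockout-only region lay at its promoter too. At 16 of the 17 no WT peak lay within 3 kb. Besides Krt83 and Krt73, Krt78 had 3994 and 3639 bp covered in the knockout and 0 bp in both WT, over 3 separate members. Krt76 had 3684 and 3801 bp, with 483 bp in WT replicate 7 and 0 bp in WT replicate 9. The number fell to 9 with peaks of a −log10 q of 3 or more, to 6 with equal peak numbers and to 0 with equal covered length. Of the 17, 7 were kept at the stricter q and 5 with equal peak numbers. Krt83 was kept under both, whereas Krt73, Krt76 and Krt78 were lost under both. Of 57 keratin-associated protein genes, whose products cross-link keratins in the hair shaft, 8 (14.0%) had a knockout-only region and 6 a region of all 4 libraries. Krtap16-1 had 2100 and 2789 bp covered, Krtap9-3 1961 and 1599 bp, Krtap4-9 656 and 1581 bp and Krtap10-4 525 and 2677 bp, all with 0 bp in both WT libraries. This count was 7 with the stricter q, 5 with equal peak numbers and 0 with equal covered length. Of the 8 genes, 5 were kept at the stricter q and 5 with equal peak numbers.

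These genes lie in clusters, and some of the members lay close to one another. Of the 846 members, 294 (34.8%) had another within 100 kb, and 18 runs of at least 4 members with gaps of up to 100 kb held 106 of them. The like share was not computed for other promoter regions or for genes, so these counts do not set the members apart. The longest run in members, 14 over chr15:101483124-101964067 (480.9 kb), lay in the type II keratin cluster from Krt83 to Krt78. A run of 10 on chr10:77705691-77855726 covered keratin-associated protein genes of the 10 and 12 subfamilies and the predicted genes between them. A pair of runs of 9 on chromosome 11, at chr11:99521241-99879812 and chr11:99984289-100334726, lay over keratin-associated protein genes and type I keratins. Runs of 6 lay over the Cd300 immune receptor genes on chromosome 11 and over Klk7, Klk8, Klk13, Klk14 and Siglece on chromosome 7. Runs of 5 held the Wfdc protease inhibitor genes on chromosome 2 and the secreted phospholipase genes Pla2g5 and Pla2g2f on chromosome 4. By chromosome, the share of genes with a knockout-only region was highest on chromosomes 15 (6.24%), 11 (5.98%) and 10 (5.97%) and lowest on chromosome 13 (1.43%).

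Of 26 kallikrein genes, which encode secreted serine proteases, several of them in the epidermis, 5 (19.2%) had a knockout-only region, all 5 without a WT peak in the window, and 0 had a region of all 4 libraries. Klk7, which degrades junctions between cornified cells, had 2912 and 3373 bp covered in Kdm6b-cKO replicates 3 and 4, Klk1 3615 and 2668 bp, Klk8 2096 and 1909 bp and Klk13 1511 and 2883 bp, with 0 bp in WT. The count was 3 with the stricter q, 2 with equal peak numbers and 0 with equal covered length. Klk7 and Klk13 were kept at the stricter q and with equal peak numbers, whereas Klk1, Klk8 and Klk14 were not. Of 60 serine protease inhibitor genes, 4 (6.67%) had a knockout-only region, among them Serpina3a, where WT replicate 7 covered 3301 bp and the knockout libraries 2143 and 2100 bp.

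**Figure D5:**
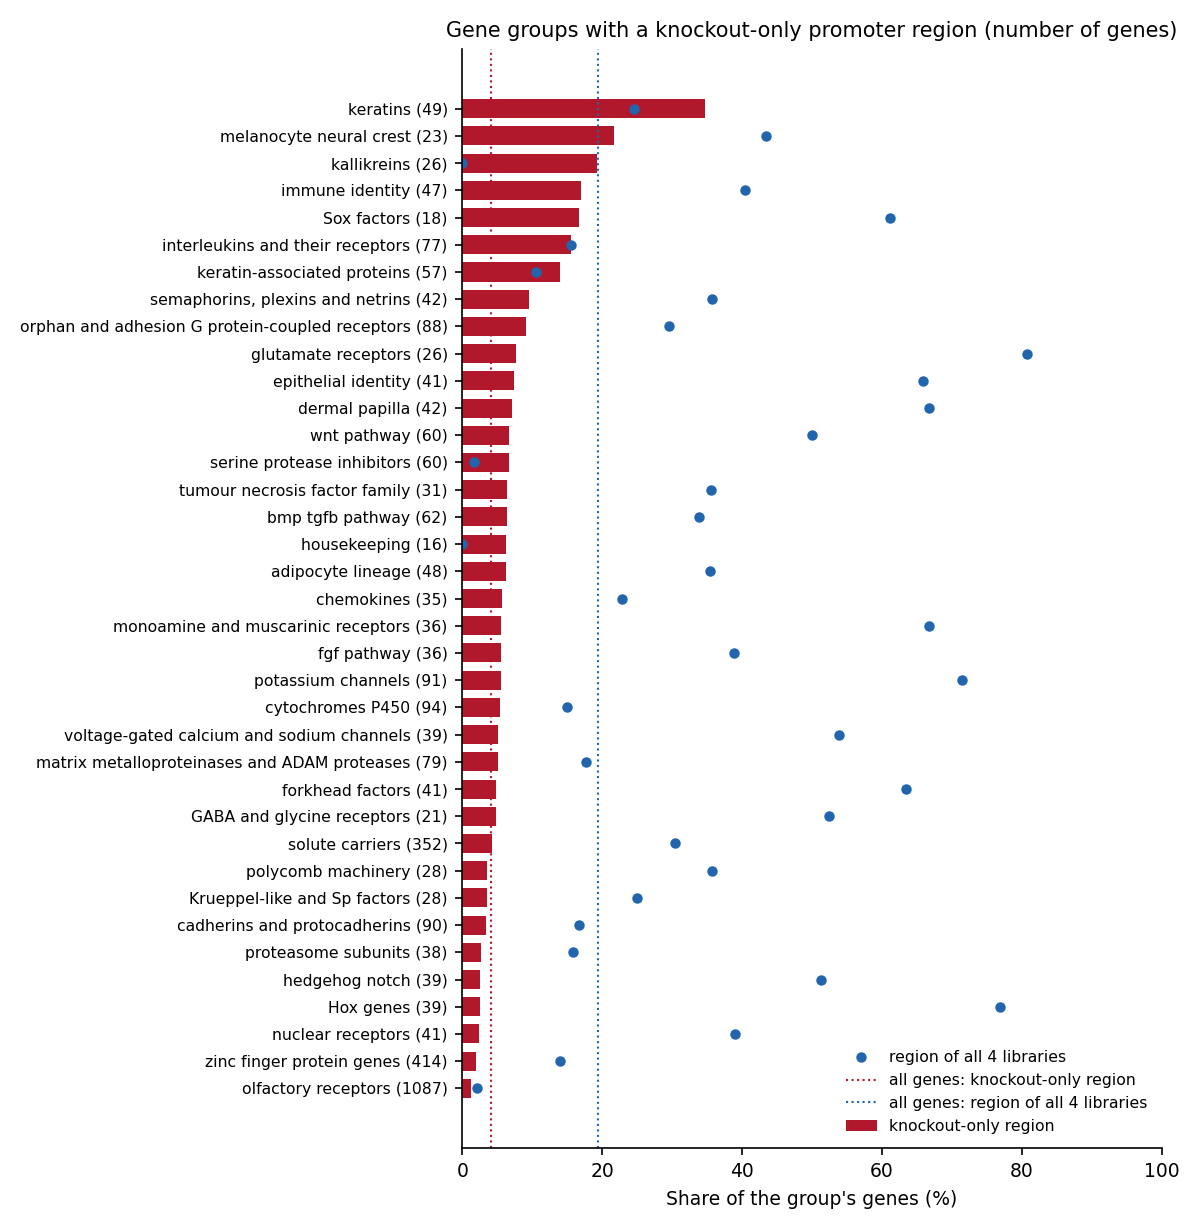
Share of each gene list's or family's members (%) with a knockout-only promoter region (bars) and with a region of all 4 libraries (points), with the number of genes in brackets. Dotted lines mark the shares over all protein-coding genes, 4.04% and 19.5%. Keratins reach 34.7%, and groups without a knockout-only region are not drawn.

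Among the 4 immune groups examined, interleukins and immune cell markers stood above the background of 4.04%, and chemokines (2 of 35, 5.71%) and the tumour necrosis factor family (2 of 31, 6.45%) lay nearer to it. Of 77 interleukin and interleukin receptor genes, 12 (15.6%) had a knockout-only region and 12 a region of all 4 libraries. Il12a, a subunit of interleukin 12, had 1641 and 2453 bp covered in the knockout, Il1a 1919 and 1703 bp and Il25 1565 and 1702 bp, all with 0 bp in both WT. Il17rb, which encodes a receptor for interleukin 25, had 4391 and 4642 bp in the knockout and 2707 and 1348 bp in WT replicates 7 and 9. The count was 5 with the stricter q, 3 with equal peak numbers and 1 with equal covered length. Of the 12 genes, 4 were kept at the stricter q, 3 with equal peak numbers and 1 with equal covered length. Of 47 genes that mark immune cells, 8 (17.0%) had a knockout-only region, 3 of them also at the stricter q and with equal peak numbers and 0 with equal covered length, and 19 (40.4%) a region of all 4 libraries. Vav1, a signalling protein of blood cells, had 3516 and 3240 bp, the T-cell kinase gene Lck 2145 and 1484 bp and the B-cell kinase gene Blk 4040 and 1546 bp, with 0 bp in WT. Itgal, a leukocyte integrin, had 1928 and 2200 bp in the knockout, 1445 bp in WT replicate 7 and 0 bp in WT replicate 9. In a bulk population, the mark in a share of the cells and less of it in every cell cannot be told apart.

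Of 23 melanocyte and neural crest genes, 5 (21.7%) had a knockout-only region, against 4.04% of all genes, and 10 a region of all 4 libraries. All 5 were lost at the stricter q, with equal peak numbers and with equal covered length. The pigment enzyme gene Dct had 1547 and 1343 bp covered, the melanocortin receptor gene Mc1r 878 and 776 bp, the endothelin receptor gene Ednrb 673 and 1966 bp and its ligand gene Edn3 522 and 1453 bp, all with 0 bp in both WT. The Mc1r region also lay at the promoter of Tubb3, and its −log10 q was 2.22 and 2.18, near the lowest of the members. The fifth gene was Sox9, a regulator of neural crest and cartilage, where the member lay upstream of the TSS and 520 bp of the window was covered in replicate 3 and 0 bp in replicate 4. Of 18 Sox genes, 3 had a knockout-only region and 11 a region of all 4 libraries. Of 41 epithelial identity genes, 3 (7.32%) had a knockout-only region, at Sfn, Grhl1 and Elf3, and of 28 endothelial and 39 muscle lineage genes 0 had one.

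Signalling genes and genes of the lineages studied carried the members at shares closer to the background. Of 42 dermal papilla genes, 3 (7.14%) had a knockout-only region and 28 a region of all 4 libraries. Nog, an antagonist of BMPs, had 816 and 1823 bp covered, Crabp2, a retinoic acid carrier, 725 and 750 bp and Edn3 the values given above, all with 0 bp in WT. Of 48 adipocyte lineage genes, 3 (6.25%) had one. Plin1, a coat protein of lipid droplets, had 1599 and 1284 bp in the knockout and 0 bp in WT. Dlk1, a preadipocyte factor, had 4707 and 4828 bp in the knockout and 2870 and 2845 bp in WT, and Klf15 had 4696 and 5016 bp in the knockout and 2465 and 2163 bp in WT. In the latter pair the knockout-only stretch was a short region of 1437 bp at Dlk1 and 511 bp at Klf15, beside regions that WT shared. Of 60 Wnt pathway genes, 4 (6.67%) had one. They were Lgr5, an R-spondin receptor, with 1433 and 2344 bp against 0 bp in WT, the receptor genes Fzd8 and Fzd9, and Axin2, a feedback inhibitor with 3338 and 3840 bp against 1616 and 867 bp in WT. Of 62 BMP and TGF-beta genes, 4 (6.45%) had one, at Lefty1, Nog, Inha and Bmp10, and of 36 FGF genes 2, at Fgf6 and Fgf18. Of 39 hedgehog and Notch genes, 1 had one, at Mfng. Of the 21 genes named by the study, 0 had a knockout-only region, 15 had a region of all 4 libraries and 6 had none. This counts presence of a peak, whereas the study also compared levels of the mark, so a gain inside a shared region is not counted. A region of all 4 libraries counted once any part reached the window, even where a library's own peaks lay outside it. Runx3, among the 15, had 438 and 777 bp covered in the knockout and 0 bp in both WT libraries. Med1 had 0 bp in both knockout libraries, 0 bp in WT replicate 7 and 512 bp in WT replicate 9. Also among the 15, Cebpa had 3456 and 4713 bp covered in the knockout against 1319 and 319 bp in WT. Rspo1 had 6001 bp in both knockout libraries against 5861 and 3889 bp. Eya2 had 6001 bp in every library, and Hes5 5856 and 5651 bp against 5936 and 5654 bp. Pparg had 498 and 1364 bp against 1093 and 1258 bp. Adipoq had 3572 and 2768 bp against 1082 and 503 bp, and Stmn2 3150 and 3580 bp against 1436 and 1255 bp. Retn had 6001 bp in both knockout libraries against 3872 and 2972 bp. Alpl had 6001 bp in both knockout libraries against 6001 and 2977 bp. Sox18 and Lamc3 had 6001 bp in every library, and at Prom1 and Zfp423 the ranges of the genotypes overlapped.

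The share of genes with a knockout-only region varied among families that carried the mark in every library. In 14 families with a region of all 4 libraries at over 50% of their genes it ran from 0% to 16.7%, the highest in the Sox genes given above, and it was above the background in 7 and 0% in 6. Some of the 7 were only just above it on few genes, such as GABA and glycine receptors (1 of 21, 4.76%) and forkhead factors (4.88%). Potassium channels had a region of all 4 libraries at 71.4% of 91 genes and a knockout-only one at 5 (5.49%), with 4154 and 3622 bp covered at Kcnk18 against 0 bp in WT. Glutamate receptors had 2 of 26, Hox genes 1 of 39 and forkhead factors 2 of 41. The LIM homeobox, Pax and Nkx families had regions of all 4 libraries at all 12, 9 and 14 genes and 0 knockout-only regions. A window filled by a region with a WT peak cannot hold a knockout-only one, so low shares in such families can arise by construction. In 20 families with no region at over 50% of their genes the share with a knockout-only region ran from 0% to 19.2%, the highest in the kallikreins. It was above the background in 10, among them the solute carriers and cytochromes P450 given below, which stood near it. Of 1087 olfactory receptor genes 14 (1.29%) had one, of 414 zinc finger genes 8 (1.93%), of 326 vomeronasal receptor genes, 78 histone genes and 75 ribosomal protein genes 0, and of 16 housekeeping genes 1, at Tfrc, upstream of its TSS. Among axon guidance genes, 4 of 42 (9.52%) had one, and Sema3f had 3553 and 5450 bp covered in the knockout and Ntn3 3319 and 5593 bp, with 0 bp in WT. Solute carriers (15 of 352, 4.26%) and cytochromes P450 (5 of 94, 5.32%) stood near the background of 4.04%. Of 28 genes of the Polycomb machinery, 1 had a knockout-only region, at Phc2, with 1837 and 971 bp covered and 0 bp in WT.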

How the data were processed

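H3K27me3 ChIP-seq of cultured E18.5 dermal fibroblasts was analysed from 4 deposited broad peak lists, 2 Kdm6b-cKO and 2 WT, grouped by their titles. The input was not used here, and how it entered peak calling is not given in the sources used here. Chromatin was cut enzymatically and precipitated with an H3K27me3 antibody. Build mm10 is given in the submitters' notes on processing, along with MACS2 2.2.7.1 for peaks, Bowtie2 2.3.5.1 for alignment, bcl2fastq, deepTools 3.5.1 and SAMtools 1.9. According to the methods of the study, libraries were subsampled to a like number of reads and the authors called broad peaks at q 0.01, in each library on its own. Peaks weaker than that threshold are missing from the lists, so an absent peak is not an absent mark.

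Each deposited peak has a −log10 q, a −log10 p, a fold ratio over background and a score, as the authors' caller gave them. The score and the −log10 p were not used further. The fold ratio was averaged by length over the peaks of a region, and the highest −log10 q was taken. No count model and no test was applied, as the lists hold no counts and all 4 libraries chose the members.

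Promoters were TSS ± 3 kb of GENCODE M21 protein-coding genes, with the gene's outermost 5′ end as the TSS. Sequence came from GRCm38.p6, and promoter windows from RefSeq on that build. Genes were named by fixed rules: the 10 with the largest covered length and no WT peak, the 10 with the highest fold ratio, those at the 5 longest regions, up to 4 of each list or family, the study's own genes and those at the thresholds. Genes named in runs, or as kept under the alternatives, fall outside these rules and were picked with their values in view. The members, gene lists, families and motifs were chosen with earlier results of these data known. The merging was tested on simulated data with 2000 planted regions. Scripts ran in Python 3.11.15 with pandas 2.3.3, numpy 2.4.6, numba 0.67.0, scipy 1.17.1 and matplotlib 3.10.9. The alternatives were a stricter q, equal peak numbers, equal covered length, joining across 1 kb, a promoter of 1 kb, an overlap of 500 bp, every transcript start, the X chromosome and leaving out each library. The removal of regions of repeated sequence and the counts of 4 families under the alternatives were added after seeing the data.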

Additional observations from a re-analysis of the deposited data

Results flagged for a closer look

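The X chromosome took no part in the comparison. It held 88 knockout-only regions at promoters, against 4 wild-type-only ones and 203 of all 4 libraries, among 623 regions at promoters. The knockout-only regions lay at 93 of 948 X-linked protein-coding genes. On the autosomes the figures were 846 of 6633 regions at promoters (12.8%) and 840 of 20807 genes (4.04%). The X share was thus near the autosomal one by regions and higher by genes. The X-linked genes included some active in nearly every cell, such as Pgk1, G6pdx, Hcfc1 and Rpl10. Others are not, such as Rhox2b, Tex11, Btk and Cd40lg. All of these were named after the values were seen, and neither kind was counted. The labels do not give the sex of the embryos.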

How the results depend on the processing

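Counts of knockout-only promoter regions fell under each of 3 ways of shortening the peak lists. At a −log10 q of 3 or more there were 554 (10.8% of promoter regions), with a median length of 3276 bp, 59.4% over a TSS and a GC content of 51.5%, and with 9 keratins, 3 kallikreins and 5 interleukins or receptors. With equal numbers of the strongest peaks there were 382 (7.23%) at 405 genes and 68 wild-type-only ones, of 2965 bp, 58.6% over a TSS and 51.8% GC, with 6 keratins, 5 keratin-associated proteins, 2 kallikreins and 3 interleukins. With equal covered length there were 46 (1.17%) at 49 genes and 335 wild-type-only ones, of 2928 bp, 89.1% over a TSS and 53.4% GC, with 0 keratins, 0 keratin-associated proteins, 0 kallikreins and 1 interleukin. Of these regions, 277 of the 554, 281 of the 382 and 17 of the 46 overlapped a member, so the values describe partly other regions. The last setting reversed which genotype had more regions of its own. The cause was not tested. A promoter of 1 kb gave 519 (11.6%) at 526 genes and 2 wild-type-only ones, of 2297 bp, 65.5% over a TSS and 51.8% GC, with 11 keratins and 7 interleukins. Joining across 1 kb moved the median length to 2200 bp. An overlap of 500 bp moved it to 2175 bp and the share over a TSS to 44.8%. Every transcript start gave 14.0% knockout-only, 2178 bp, 44.7% over a TSS and 50.9% GC. Leaving out 1 library in turn gave 927 to 1610 regions at 919 to 1478 genes, 14.0% to 25.8% of promoter regions, 22 to 174 wild-type-only regions, median lengths of 940.5 to 2520 bp, 22.9% to 42.8% over a TSS, 49.9% to 51.0% GC, 17 to 24 keratins, 8 to 13 keratin-associated proteins, 5 to 7 kallikreins and 13 to 16 interleukins. Fewer libraries to pass the rule raise these counts by construction. Adding the X chromosome gave 934 regions, and dropping repeated sequence gave 800. No paired analysis was possible because the genotypes share no replicate numbers. With 2 libraries a genotype and peak lists in place of counts, a region missed in WT may lie just under the calling threshold there.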
